A study of Mus musculus with 19 samples.

Results

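Iron handling genes were followed in sorted retinal microglia, the resident macrophages of the retina, during experimental choroidal neovascularization (CNV), the growth of new vessels from the choroid after laser injury. The 10 genes were chosen by name for their part in iron storage, export, uptake and control, and comprise *Ftl1*, *Fth1*, *Ncoa4*, *Slc40a1*, *Hmox1*, *Tfrc*, *Steap3*, *Slc11a2*, *Slc11a1* and *Ireb2*. All 10 were among the 27299 genes in the table. Bulk RNA-seq had been made of 6 samples taken 3 days after 6 argon laser burns per eye (CNV d3) and of 6 samples from unlasered control mice. The mice of both groups were 8 weeks old. The labels name the strain C57BL/6J and a gate of CD45+CD11b+CX3CR1+Ly6C-Ly6G- cells, whereas the methods name Cx3cr1 GFP/+ mice on that background, in which 1 allele of *Cx3cr1* is replaced by GFP, and cells low for CD45. Only the central retina, which holds the burns, was used in both groups. Nothing in the labels says whether the 6 samples of a group came from separate mice, so the p-values measure the spread between these samples.

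Iron enters most cells bound to transferrin through the transferrin receptor, is reduced to the ferrous form in the endosome and passes into the cytosol through divalent metal transporters. Spare iron is stored inside ferritin, a shell of heavy and light chains, and leaves the cell through ferroportin, the sole known iron exporter of mammals. Macrophages also gain iron from heme, which heme oxygenase breaks down, and the brain and retina depend on local cells of this kind because their blood barriers restrict the entry of iron. Iron regulatory proteins bind hairpins in messenger RNA called iron-responsive elements. Binding in a 5′ UTR blocks translation, and binding in a 3′ UTR protects the messenger from decay, so that the amount of mRNA alone does not give the amount of protein.

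The iron-responsive elements are shown because they group the members by where the element lies. Such elements are known from genes of iron handling, for which the members were chosen, so their share among the members is not independent of that choice. The letters searched on the transcript strand were a C, any 5 bases, CAGTGN, and 5 more bases, of which at least 4 of 5 had to pair with the first run. In the annotated UTRs of GENCODE M21 on GRCm38, 8 such sites were found in 5 of the 10 genes, against 1074 of 21866 protein-coding genes (4.91%). A 5′ UTR held the letters in 3 of the 10, which were *Ftl1*, *Fth1* and *Slc40a1*, against 0.942% of protein-coding genes. A 3′ UTR held them in 2 of the 10, which were *Tfrc* and *Slc11a2*, against 3.99%. Each element is printed 5′ to 3′ over 29 bases, with the unpaired C and the loop letters in capitals.
Ftl1, 5′ UTR, chr7:45459785-45459801, minus strand: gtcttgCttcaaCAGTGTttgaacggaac
Fth1, 5′ UTR, chr19:9982738-9982754, plus strand: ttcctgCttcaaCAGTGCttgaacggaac
Slc40a1, 5′ UTR, chr1:45925471-45925487, minus strand: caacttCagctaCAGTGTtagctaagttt
Tfrc, 3′ UTR, chr16:32631225-32631241, plus strand: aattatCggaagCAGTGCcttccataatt
Tfrc, 3′ UTR, chr16:32631604-32631620, plus strand: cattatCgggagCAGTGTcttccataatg
Tfrc, 3′ UTR, chr16:32631669-32631685, plus strand: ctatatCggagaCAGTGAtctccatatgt
Tfrc, 3′ UTR, chr16:32631716-32631732, plus strand: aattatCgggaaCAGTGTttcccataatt
Slc11a2, 3′ UTR, chr15:100395159-100395175, minus strand: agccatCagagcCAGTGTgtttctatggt
The coordinates cover the bases from the unpaired C to the end of the second run. The elements of *Ftl1* and *Fth1* share the same stem letters, *Tfrc* carries 4 elements in a row, and the *Slc11a2* site pairs in 4 of 5 positions where the others pair in 5. A match of letters is a description and not evidence of binding.

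Depth was lower in control, where a sample had 10963178 to 22335233 reads on genes, than at CNV d3, where it had 23532260 to 29523018. Values are normalized counts, which are reads divided by the size factor of the sample. The shallowest sample was control replicate 6, in which 1 read is worth 1.986 normalized counts. All 6 control samples and CNV d3 replicates 1 to 3 had reads of *Xist*, the RNA of the silenced X chromosome, and none of the Y-linked gene *Ddx3y*. Normalized counts of *Xist* were between 6522 and 9795 in control and between 3116 and 5245 in CNV d3 replicates 1 to 3. CNV d3 replicates 4 to 6 had between 1239 and 1450 normalized counts of *Ddx3y* and at most 0.866 of *Xist*. The labels do not give the sex of the mice, and results are therefore also given without these 3 samples where that changes a call.

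Markers of microglia were abundant in all samples, with a sum over 8 genes between 1142088 and 1298481 normalized counts in control and between 630383 and 941390 at CNV d3. Of these 8 genes, 5 were lower at CNV d3 and 3 were not called by limma. The sum over 8 monocyte markers was between 35.1 and 293 in control and between 386 and 2683 at CNV d3, and 4 of the 8 were higher. *Ly6c2*, *Chil3*, *F10* and *Cd177* of that list were among those at 0 in every control sample. Border macrophage markers summed to between 506 and 3031 in control and between 1653 and 3737 at CNV d3, with 2 of 8 higher. These were *Siglec1*, with means of 383 in control and 1812 at CNV d3, and *Cbr2*, with 19.9 and 84.2. The means of *Mrc1* (350 and 113), *Lyve1* (94 and 2.09), *Pf4* (105 and 88.1) and *Ms4a7* (447 and 402) were lower at CNV d3. Those of *Cd163* and *F13a1* were higher, and none of these was called. Of 8 erythroid markers 4 were in the table, and their sum was at most 15.2 in any sample, so hemoglobin mRNA was close to absent. The 3 neutrophil markers in the table summed to at most 22.3, and 5 retinal pigment epithelium markers to at most 358. Photoreceptor markers summed to between 697 and 6581 in control and between 564 and 12264 at CNV d3. Müller glia markers summed to between 6803 and 9868 and between 7943 and 8902, with 2 of 5 higher and 1 lower, and the 5 endothelial markers in the table to between 240 and 741 and between 155 and 266, with 1 lower. The part of such cells in the results on iron genes was not tested, and in these bulk samples fewer cells of a type and less RNA per cell cannot be told apart.

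At CNV d3, the samples of sorted cells had more mRNA of the ferritin light chain and of heme oxygenase 1. They had less of the iron exporter ferroportin and of the phagosomal iron transporter *Slc11a1*. *Hmox1* was 2.94-fold and *Ftl1* 1.74-fold the control mean, while *Slc40a1* was at 0.482 and *Slc11a1* at 0.770 of it. Each of these 4 genes separated the groups without overlap. The other 6 genes did not pass an adjusted p of 0.05 in limma on log2(normalized counts + 1), fitted over all 27299 genes, and their groups overlapped. Thus 2 of 10 members were called higher, where 8.29% of all genes were, and 2 of 10 lower, where 4.57% were. By DESeq2 on the recovered reads the split over all genes was 2493 higher and 2170 lower, against 2264 and 1247 by limma. All 10 members reached 10 normalized counts in at least 6 samples, and of the 12753 genes that did so 13.8% were called higher and 9.45% lower. CNV d3 lay wholly above control in 2 of the 10, against 4.64% of all genes, and wholly below in 2 of the 10, against 2.83%. The median log2 fold change of the 10 was 0.50, beside 0.15 over all genes. With the threshold of an absolute log2 fold change above 1.5 (DEG), limma called 0 of the 10, where 3.91% of all genes were DEG higher and 1.07% DEG lower. *Tfrc* alone passed that fold with an unadjusted p under 0.05, and edgeR and DESeq2 each called 1 DEG, *Hmox1*.

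**Figure D1:**
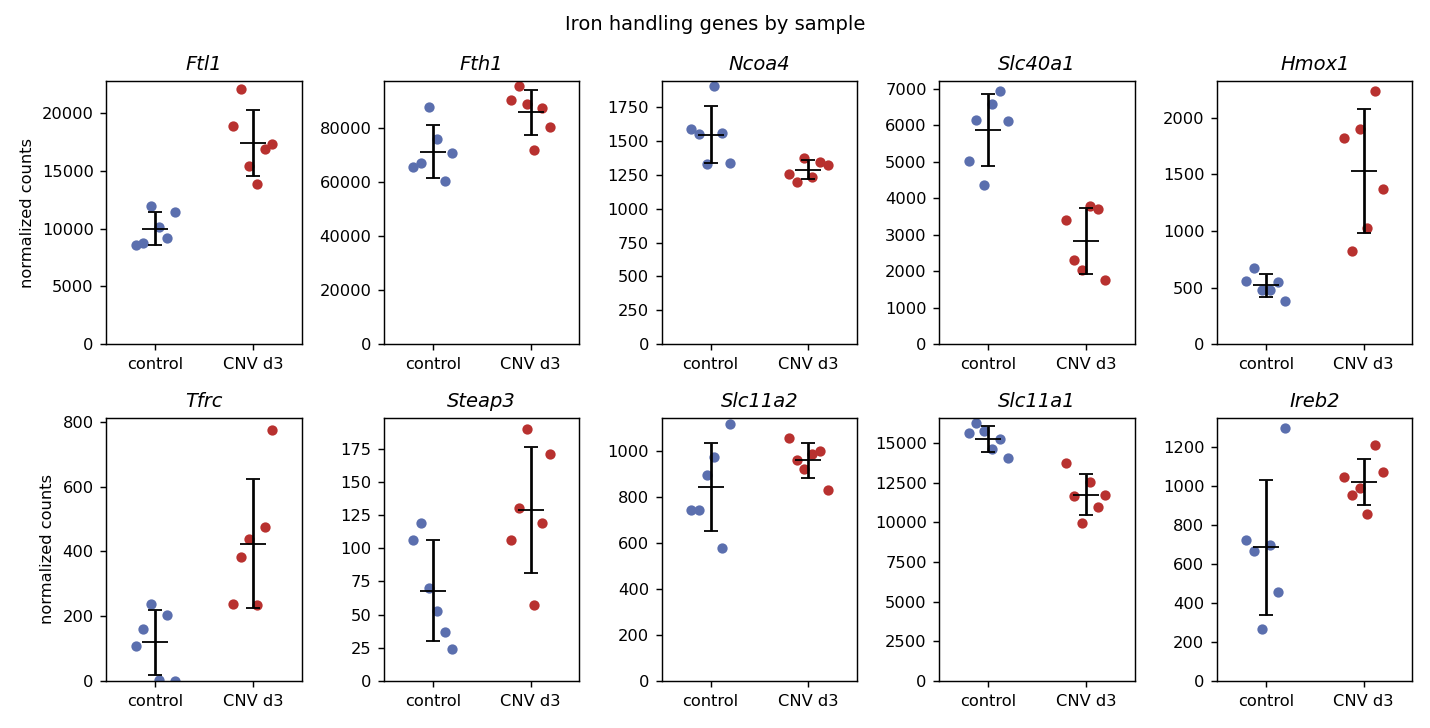
Normalized counts (linear axis from 0) of the 10 iron handling genes in 6 control (blue) and 6 CNV d3 samples (red). Points are samples, horizontal marks are means and bars are SD. *Ftl1*, *Hmox1*, *Slc40a1* and *Slc11a1* show 2 groups that do not overlap, and *Tfrc* shows 2 control samples at or near 0.

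Ferritin was the most abundant product among the members. *Ftl1*, the light chain that helps to form the mineral core, lies on the minus strand at chr7:45457944-45459884. It had 8562, 9642 and 11914 normalized counts as lowest, median and highest value in control and 13845, 17113 and 22075 at CNV d3. Every CNV d3 sample was above every control sample, and the lowest of them, replicate 4, was 1 of the 3 with *Ddx3y*. The means were 10002 ± 1417 (SD, n = 6) and 17397 ± 2863 (SD, n = 6), and *Ftl1* rose by a log2 fold change of 0.79 ± 0.12 (SE), with a 95% interval of 0.55 to 1.04 and an adjusted p of 0.000399 (limma). *Ftl1* shares 34.6% of its exon bases with *Gm10252* on the opposite strand and *Gm22133* on the same strand, and reads in such bases are left out of the count. *Gm10252* itself had at most 6.649 normalized counts.

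*Fth1*, the heavy chain that oxidizes ferrous iron on its way into the shell, lies on the plus strand at chr19:9980598-9985098. Its normalized counts were 60104, 68777 and 87749 in control and 71862, 88087 and 95431 at CNV d3. The groups overlapped, since CNV d3 replicates 4, 5 and 6 lay within the control range, below control replicate 3. The means were 71153 ± 9690 (SD, n = 6) and 85637 ± 8334 (SD, n = 6), a log2 fold change of 0.27 ± 0.09 (SE), with a 95% interval of 0.08 to 0.46 and an adjusted p of 0.0626 (limma). This difference was close to the threshold. The adjusted p was 0.0493 with TMM scaling, 0.0445 with a filter on low values and 0.0394 with DESeq2, and it was 0.021 without control replicate 3 and 0.0436 without CNV d3 replicate 4 (limma). Reads of *Fth1* made up 0.326% of all reads in control and 0.399% at CNV d3, and it ranked 30 and 22 by mean among all genes. The 6 other rows named *Ftl* or *Fth* held little, with the highest mean, 68.78 normalized counts, for *Ftl1-ps1*. A read that fits both a ferritin gene and a copy may be counted in no row, so reads lost in this way cannot be seen here.

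Per length of exon, *Fth1* exceeded *Ftl1* in every sample. The length of *Ftl1* includes the 34.6% of its exon bases shared with other genes, where reads are left out. Its level may thus be too low and the ratio of *Fth1* to *Ftl1* too high, with the same length used in every sample. The ratio was between 2.38 and 2.96 in control and between 1.67 and 2.23 at CNV d3, with means of 2.76 ± 0.245 (SD, n = 6) and 1.92 ± 0.198 (SD, n = 6). No CNV d3 sample reached the lowest control ratio. With the length of the longest transcript in place of all exons, the means were 3.35 ± 0.298 and 2.34 ± 0.241 (SD, n = 6 each). *Ftl1* made up a larger share of ferritin mRNA at CNV d3.

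*Ncoa4*, the receptor that delivers ferritin to the lysosome for the release of its iron, lies at chr14:32159865-32179855. It had 1330, 1553 and 1906 normalized counts in control and 1197, 1288 and 1373 at CNV d3. Only control replicates 3 and 6 lay within the range of CNV d3. The log2 fold change was -0.25 ± 0.11 (SE), with a 95% interval of -0.48 to -0.02 and an adjusted p of 0.153 (limma). It was 0.0296 with DESeq2, and 0.0477 by limma without control replicate 3.

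*Slc40a1*, which encodes ferroportin, was the member with the largest decrease and lies on the minus strand at chr1:45908068-45926523. In control it had 4365, 6147 and 6959 normalized counts, and at CNV d3 1750, 2854 and 3789. The highest CNV d3 sample, replicate 4, stayed below the lowest control sample, replicate 3. With means of 5872 ± 982 (SD, n = 6) and 2831 ± 902 (SD, n = 6), *Slc40a1* fell by 1.10 ± 0.19 (SE) on the log2 scale, with a 95% interval of -1.51 to -0.68 and an adjusted p of 0.00162 (limma). Its rank by mean among all genes went from 514 to 1362. In the order of their monocyte marker sums of 386, 552, 863, 1484, 2250 and 2683, CNV d3 replicates 1, 4, 2, 5, 6 and 3 had 3405, 3789, 2302, 3698, 1750 and 2044 normalized counts of *Slc40a1*. Replicates 6 and 3, with the 2 highest sums, had the lowest values, while replicate 5 with the next highest sum had the second highest value, and the part of monocytes in the decrease was not tested.

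*Hmox1*, the inducible enzyme that opens the heme ring and frees its iron, lies on the plus strand at chr8:75093621-75100589. Control samples had 385, 513 and 674 normalized counts and CNV d3 samples 819, 1596 and 2232. All CNV d3 samples were above all control samples, but they differed among themselves more than the control samples did, with a coefficient of variation of 35.8% against 18.9%. The means were 520 ± 98.1 (SD, n = 6) and 1529 ± 547 (SD, n = 6), and *Hmox1* rose by a log2 fold change of 1.49 ± 0.23 (SE), with a 95% interval of 1.00 to 1.98 and an adjusted p of 0.000621 (limma). This value lay just under the DEG threshold, and was 1.51 with TMM scaling, 1.57 with edgeR and 1.56 with DESeq2. In the same order of rising monocyte marker sums, CNV d3 replicates 1, 4, 2, 5, 6 and 3 had 1821, 1030, 819, 2232, 1371 and 1901 normalized counts of *Hmox1*. The lowest value was that of replicate 2 and the highest that of replicate 5, and the part of monocytes in the increase was not tested.

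**Figure D2:**
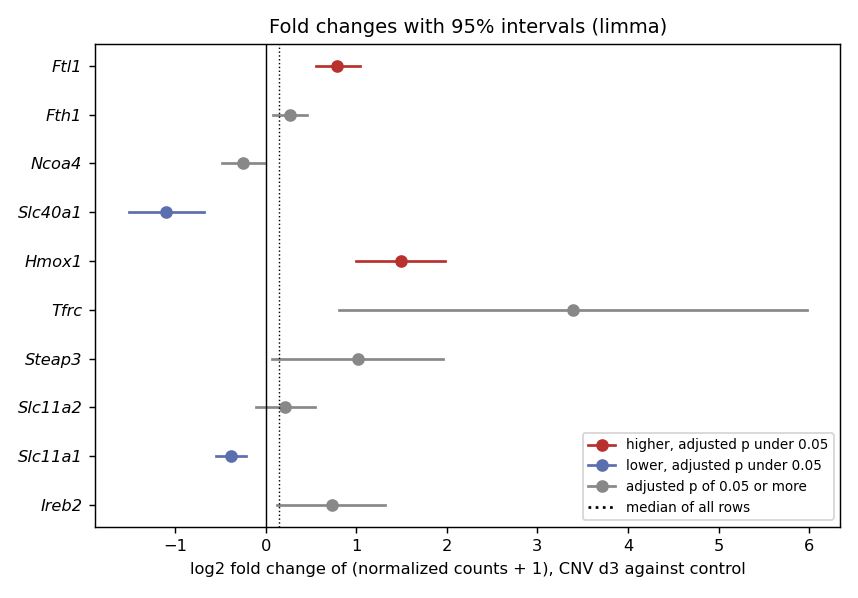
Log2 fold change (CNV d3 against control, on log2(normalized counts + 1)) with 95% intervals from limma for the 10 genes, red and blue where the adjusted p was under 0.05. The dotted line is the median of all genes, 0.15, and the interval of *Tfrc* is the widest, from 0.81 to 5.97.

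The uptake genes had higher means at CNV d3, but limma called 0 of the 3. By unadjusted p under 0.05 it had 2, *Tfrc* and *Steap3*, and edgeR and DESeq2 also called 0 of the 3. *Tfrc*, the transferrin receptor, lies at chr16:32608920-32632794. Its 6 control samples had 108, 159, 239, 2, 205 and 0 normalized counts in the order of replicates 1 to 6, and its CNV d3 samples 236, 383, 438, 234, 476 and 774. Control replicates 4 and 6 held 2 and 0 reads of *Tfrc*, below the 3 reads taken as the smallest signal, while the other 4 control samples held between 101 and 212 reads. Of the CNV d3 samples 2, replicates 1 and 4, lay just below the highest control sample. The means were 119 ± 101 (SD, n = 6) and 423 ± 199 (SD, n = 6), a ratio of 3.56, and the log2 fold change was 3.39 ± 1.21 (SE), with a 95% interval of 0.81 to 5.97 and an adjusted p of 0.0835 (limma). That size rested on the 2 control samples near 0. It was 1.18 without them, an alternative chosen after seeing the data, and 1.83 with edgeR or DESeq2.

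*Steap3*, the endosomal enzyme that reduces ferric iron after uptake, lies at chr1:120190757-120272705. It was the least abundant member, with 23.8, 61.3 and 119 normalized counts in control and 57, 124 and 190 at CNV d3. CNV d3 replicate 4 lay below the control median and the groups overlapped. The log2 fold change was 1.02 ± 0.44 (SE), with a 95% interval of 0.07 to 1.96 and an adjusted p of 0.161 (limma). Control replicate 6, with the lowest value, held 12 reads.

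*Slc11a2*, the divalent metal transporter that moves ferrous iron out of endosomes, lies at chr15:100387898-100425072. Control samples had 580, 822 and 1120 normalized counts and CNV d3 samples 830, 974 and 1057. The range of CNV d3 lay inside that of control. The log2 fold change was 0.21 ± 0.15 (SE), with an adjusted p of 0.432 (limma), and its 95% interval of -0.11 to 0.54 leaves a change of either sign within reach. Of its exon bases 6.33% are shared with *Gm5475* on the opposite strand, which had at most 5.368 normalized counts.

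*Slc11a1* encodes the related transporter of the phagosome membrane, which draws divalent metals away from engulfed microbes, and lies at chr1:74375195-74386062. With 14060, 15430 and 16277 normalized counts it was the steadiest member in control, with a coefficient of variation of 5.26%. At CNV d3 it had 9946, 11684 and 13710. The highest CNV d3 sample, replicate 1, was just below the lowest control sample, replicate 6. The means were 15262 ± 803 (SD, n = 6) and 11752 ± 1287 (SD, n = 6), and *Slc11a1* fell by 0.38 ± 0.08 (SE) on the log2 scale, with a 95% interval of -0.55 to -0.22 and an adjusted p of 0.00433 (limma). Without the 3 CNV d3 samples that had *Ddx3y* reads, an alternative chosen after seeing the data, the log2 fold change was -0.39 with an adjusted p of 0.0657 (limma), so this call was lost. The calls of *Ftl1*, *Hmox1* and *Slc40a1* held without these samples, with log2 fold changes of 0.90, 1.47 and -1.20 and adjusted p of 0.013, 0.0264 and 0.0133 (limma).

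*Ireb2* encodes iron regulatory protein 2, which binds iron-responsive elements when iron is scarce, and lies at chr9:54863789-54912530. Control samples had 725, 668, 267, 696, 458 and 1299 normalized counts in the order of replicates and CNV d3 samples 1046, 953, 992, 859, 1209 and 1072. All CNV d3 samples were above 5 of the 6 control samples, and control replicate 6 was above all of them. The log2 fold change was 0.73 ± 0.28 (SE), with a 95% interval of 0.13 to 1.32 and an adjusted p of 0.110 (limma). Without control replicate 6, the shallowest sample, it was 0.94 with an adjusted p of 0.026 (limma). Without control replicates 4 and 6, it was 1.04 with an adjusted p of 0.03 (limma). The coefficient of variation was 50.8% in control and 11.6% at CNV d3.

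The 3 members with an element in the 5′ UTR did not move together. *Ftl1* rose, *Slc40a1* fell, and *Fth1* had a log2 fold change of 0.27 that was not called. Of the 2 members with an element in the 3′ UTR, *Tfrc* had a log2 fold change of 3.39 and *Slc11a2* of 0.21, and neither was called. The size for *Tfrc* rested on the 2 control samples near 0, and was 1.18 without them and 1.83 with edgeR or DESeq2.

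Levels of different genes were compared per length, as RPKM, which are reads per kilobase of exon scaled to the depth of the sample. The lengths include bases shared with other genes, 34.6% for *Ftl1* and 6.33% for *Slc11a2*, so the levels of these genes may be too low. Control means of RPKM, in falling order, were 938 ± 126 for *Fth1*, 341 ± 46.8 for *Ftl1*, 189 ± 11 for *Slc11a1*, 29.8 ± 4.87 for *Slc40a1* and 13.6 ± 2.66 for *Hmox1* (SD, n = 6 each). The ranges of these 5 genes did not overlap in control. *Ncoa4* at 7.55 ± 1.05, *Slc11a2* at 6.09 ± 1.41 and *Ireb2* at 3.32 ± 1.70 followed, and each overlapped its neighbour. *Tfrc* at 0.875 ± 0.739 and *Steap3* at 0.549 ± 0.313 were lowest and overlapped each other too. At CNV d3 the order differed in 2 places. *Hmox1* at 40.7 ± 14.6 stood above *Slc40a1* at 14.6 ± 4.64, and *Slc11a2* at 7.04 ± 0.550 above *Ncoa4* at 6.41 ± 0.386, where the latter 2 overlapped. *Slc40a1* was above *Hmox1* in 6 of 6 control samples, and *Hmox1* was above *Slc40a1* in 6 of 6 CNV d3 samples. With the length of the longest transcript, the latter held in 4 of 6, and the control mean of *Ncoa4*, 14.9, came close to that of *Hmox1*, 15.2. With that length *Ncoa4* stood above *Slc11a2* at CNV d3 too, with means of 12.7 and 10.1, so these genes kept their control order.

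**Figure D3:**
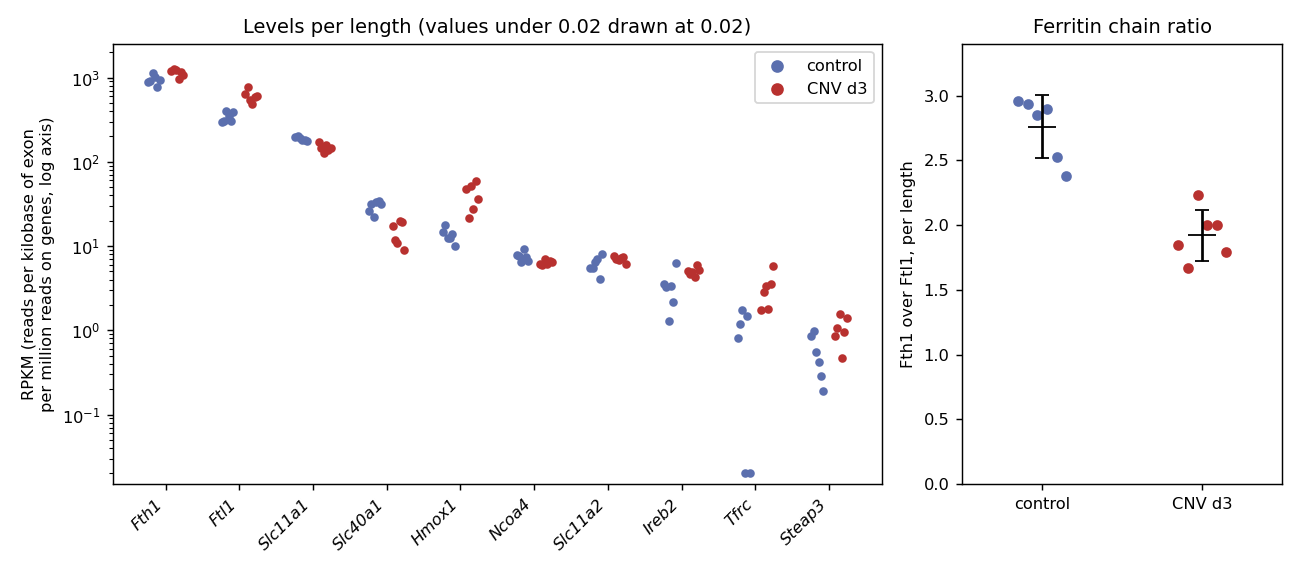
Left, reads per kilobase of exon scaled to depth (RPKM, log axis) of the 10 genes, ordered by control mean, in control (blue) and CNV d3 (red) samples. Right, the ratio of *Fth1* to *Ftl1* per length in each sample, with mean and SD. The length of *Ftl1* includes bases shared with other genes, where reads are left out. *Hmox1* and *Slc40a1* exchange places between the groups, and the ratio is between 2.38 and 2.96 in control and between 1.67 and 2.23 at CNV d3.

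Around the 10 members, 72 other genes of iron and heme metabolism were read from the same limma fit, and 65 of them were in the table. Of these 65, 8 were higher, 4 were lower and 53 were not called, with a median log2 fold change of 0.20 beside 0.15 over all genes. Over all genes 8.29% were higher and 4.57% lower, and over the genes with 10 or more normalized counts in at least 6 samples, to which 52 of the 65 belong, 13.8% and 9.45%, so the counts of these 65 genes are near the shares over all genes. The calls on *Slc39a14*, *Snx3*, *Pcbp2* and *Slc46a1* held under all 21 alternatives tried, and their groups did not overlap. The other 8 were less firm. *Lcn2* was called under 18 of the 21, *Pgrmc1* under 16, *Lrp1* under 11, *Hscb* under 10, *Abcb10* and *Ciao1* under 8 each, *Nfe2l2* under 7 and *Cybrd1* under 6. The counts fell to 3 higher and 1 lower without the 3 CNV d3 samples that had *Ddx3y* reads.

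Of 16 genes for uptake, reduction and export in the table, 5 were higher and 0 lower, where 8.29% and 4.57% of all genes were, and by unadjusted p under 0.05 limma likewise had 5 and 0. DESeq2 called 5 and 0 as well, and had 1 lower by unadjusted p. *Slc39a14*, a transporter of iron that is not bound to transferrin, had between 271 and 870 normalized counts in control and between 1515 and 4953 at CNV d3. It rose by a log2 fold change of 1.92 ± 0.30 (SE), with an adjusted p of 0.000632 (limma), and passed the DEG threshold. *Snx3*, a sorting nexin that returns the transferrin receptor to the cell surface, had a mean of 2810 ± 239 in control and 4539 ± 616 at CNV d3 (SD, n = 6 each), a log2 fold change of 0.68 with an adjusted p of 0.000519 (limma). *Lrp1*, a receptor that takes up heme bound to hemopexin among many ligands, rose from 9163 ± 2015 to 13517 ± 2557 (SD, n = 6 each), with an adjusted p of 0.0264 (limma). *Lcn2*, which binds iron-loaded siderophores, and *Cybrd1*, a ferric reductase, were at 0 in all 6 control samples and reached at most 19.2 and 30.4 normalized counts at CNV d3. *Trf*, transferrin itself, had 48403 ± 2634 normalized counts in control and 49280 ± 14450 at CNV d3 (SD, n = 6 each), with an adjusted p of 0.914 (limma). Its CNV d3 samples ranged from 27599 to 67799, on both sides of all control samples. *Cp*, the ferroxidase that works beside ferroportin, had a log2 fold change of 0.53 ± 0.75 (SE), and *Heph*, its membrane-bound relative, had at most 1.01 normalized counts.

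Of 12 genes for the control of iron level in the table, 1 was higher and 1 lower, near the 8.29% and 4.57% of all genes. *Pcbp2*, a chaperone of cytosolic iron, rose from 442 ± 66.6 to 849 ± 147 normalized counts (SD, n = 6 each), a log2 fold change of 0.94 ± 0.16 (SE) with an adjusted p of 0.00114 (limma). *Nfe2l2*, the oxidative stress factor NRF2 that is known to drive *Hmox1* and the ferritin genes, fell by 0.30 ± 0.09 (SE) on the log2 scale, from 8809 ± 1031 to 7114 ± 664 normalized counts (SD, n = 6 each), with an adjusted p of 0.0379 (limma). This call was lost under 14 of the 21 alternatives, TMM scaling, edgeR and the replicate block among them. *Bach1*, the repressor of *Hmox1*, had a log2 fold change of 0.35 ± 0.18 (SE) and an adjusted p of 0.255 (limma). *Aco1*, which encodes iron regulatory protein 1, was at 1472 ± 295 and 1514 ± 149 normalized counts (SD, n = 6 each), and *Fbxl5*, which marks iron regulatory proteins for decay when iron is plentiful, had a log2 fold change of 0.31 ± 0.27 (SE). *Hfe*, a partner of the transferrin receptor, lay between 2688 and 3517 in control and between 3542 and 4302 at CNV d3, without overlap, with an adjusted p of 0.0602 (limma). *Pcbp1*, the close relative of *Pcbp2*, had a log2 fold change of -0.09 ± 0.08 (SE). *Hamp*, which encodes the hormone hepcidin, and *Ftmt*, mitochondrial ferritin, were not among the rows analysed here.

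Of 13 genes for the uptake, transport and breakdown of heme, 2 were lower and 0 higher, where 4.57% and 8.29% of all genes were. By unadjusted p under 0.05 limma had 1 higher, and edgeR and DESeq2 called 0 higher. *Slc46a1*, a carrier of heme and folate, fell by 0.67 ± 0.09 (SE) on the log2 scale, from 5794 ± 189 to 3674 ± 475 normalized counts (SD, n = 6 each), with an adjusted p of 0.000197 (limma). *Pgrmc1*, a heme-binding membrane protein, fell from 3156 ± 606 to 2215 ± 253 (SD, n = 6 each), with an adjusted p of 0.0212 (limma). *Hmox2*, the constitutive heme oxygenase, was at 2361 ± 232 and 2505 ± 235 (SD, n = 6 each), with a log2 fold change of 0.09 ± 0.10 (SE) beside the 1.49 of *Hmox1*. *Blvrb*, which encodes biliverdin reductase B, had a log2 fold change of -0.12 ± 0.14 (SE), and the heme carriers *Slc48a1* and *Flvcr1* of 0.20 ± 0.15 and 0.40 ± 0.25 (SE). None of these 4 was called.

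Of 24 genes for heme synthesis and iron-sulfur assembly, all in the table, 2 were higher and 1 lower, near the 8.29% and 4.57% of all genes. *Abcb10*, a mitochondrial transporter needed for heme synthesis, rose from 278 ± 182 to 568 ± 103 normalized counts (SD, n = 6 each), with an adjusted p of 0.0375 (limma). *Hscb*, a co-chaperone of iron-sulfur assembly, rose from 232 ± 46.0 to 357 ± 60.3 (SD, n = 6 each), with an adjusted p of 0.0487 (limma). *Ciao1*, of the cytosolic iron-sulfur machinery, fell from 1598 ± 337 to 1104 ± 181 (SD, n = 6 each), with an adjusted p of 0.0452 (limma). These 3 calls were close to the threshold, and edgeR on the recovered reads kept only *Ciao1* of them. *Slc25a37*, the mitochondrial iron importer mitoferrin 1, had a log2 fold change of -0.09 ± 0.33 (SE).

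**Figure D4:**
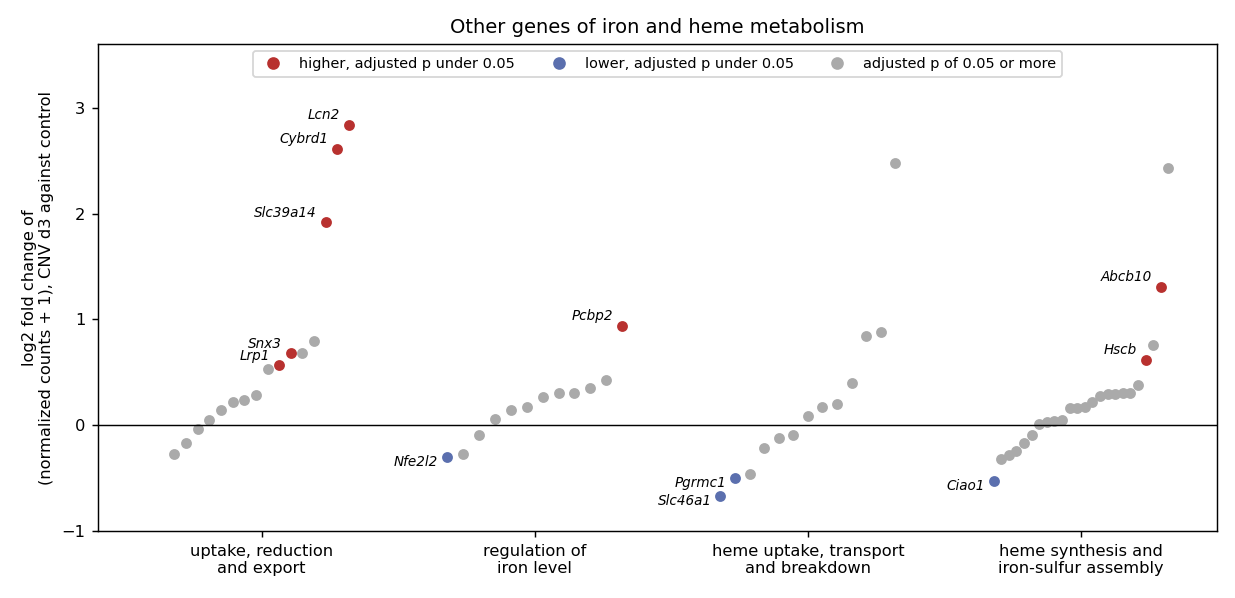
Log2 fold change (CNV d3 against control, on log2(normalized counts + 1)) of the 65 other genes of iron and heme metabolism in 4 lists, each point a gene, sorted within its list. Named points passed an adjusted p of 0.05 in limma, 8 higher (red) and 4 lower (blue), and 53 grey points did not.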

How the data were processed

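Bulk RNA-seq of 6 control and 6 CNV d3 samples of sorted retinal microglia was analysed. Single reads were mapped by the authors with STAR 2.7.2b (GRCm38.p6, Gencode M25), joined across flow cells and counted by gene, ignoring strand, with featureCounts 1.6.4, and genes with 0 reads throughout were dropped. The deposited values are a signal, namely reads over the size factor from DESeq2 1.22.2. The deposited group means, log2 fold changes and adjusted p-values were not used.

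Values were compared as log2(value + 1) with limma 3.58.1 (trend, no filter, no covariate) over 27299 rows in R 4.3.3, with Benjamini-Hochberg adjustment. A gene was called at an adjusted p under 0.05, and a DEG also had an absolute log2 fold change above 1.5. All values (100%, tolerance 0.001) were whole multiples of 1 read in the sample, so reads were recovered for edgeR 4.0.16 and DESeq2 1.42.0, which called 1952 and 2493 genes higher and 1181 and 2170 lower. All tools were tested on simulated data. Total reads on genes were between 10963178 and 29523018, and 3 reads were taken as the floor, which covers counting error only since PCR copies were not marked. Positions, lengths and UTRs came from GENCODE M21 on GRCm38, which matched 27238 rows.

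The labels split each control sample and, at CNV d3, only replicate 4 into 2 parts, which were taken as 1 sample. This split nearly follows the groups, and its part in the results was not tested. The values of 1 monocyte marker on its own are not reported here. The 10 members, the 4 lists of other iron genes and the 9 cell type marker lists were chosen with earlier results of these data known. Named from the lists were a fixed set of regulators and carriers and, per list, up to 4 genes called in each direction with the highest mean. Alternatives were TMM scaling, a filter (10 normalized counts in 6 samples), pseudocounts of 0.5 and 5, edgeR, DESeq2, the replicate number as a block, and leaving out each sample. Chosen after seeing the data were leaving out control replicates 4 and 6 and leaving out the 3 CNV d3 samples with *Ddx3y* reads.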

Additional observations from a re-analysis of the deposited data

How the results depend on the processing

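*Ftl1*, *Hmox1* and *Slc40a1* kept their direction and their call under all 21 alternatives, with adjusted p up to 0.013, 0.0264 and 0.0294 (limma, edgeR or DESeq2), and *Slc11a1* under 20 of 21. *Tfrc*, *Slc11a2* and *Steap3* were called under 0 of 21, with lowest adjusted p of 0.0505, 0.0779 and 0.0885. *Fth1* was called under 5, and *Ireb2* and *Ncoa4* under 2 each. DESeq2 called 2170 genes lower. *Hmox1* made 1 member DEG higher with TMM scaling, edgeR and DESeq2, and leaving out 1 sample gave 0 to 1. Of the other iron genes, leaving out 1 sample left 4 to 7 higher and 1 to 5 lower, and TMM scaling left 2 lower. Without control replicates 4 and 6 there were 4 higher and 2 lower. Without the 3 CNV d3 samples with *Ddx3y* reads, 1022 genes were higher and 540 lower, 1 member was lower, and 3 other iron genes were higher and 1 lower, with 3 samples fewer in the fit. For the other shifts the cause was not tested. The replicate block gave 1885 genes higher and 975 lower and called 2 members in each direction. The numbers gave no sign of pairing, since the correlations of same-numbered samples were between -0.019 and 0.0507 and 1 of 6 replicates matched its own number best. The median log2 fold change of genes with 10 or more normalized counts in 6 samples was 0.10 by limma, 0.00 by edgeR and -0.01 by DESeq2. Low read numbers limit *Tfrc* and *Steap3* in control.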

Other observations

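Single samples stood at the edge of their group for several iron handling genes. CNV d3 replicate 4 had the lowest value of its group for 5 of the 10 members, *Ftl1*, *Fth1*, *Tfrc*, *Steap3* and *Ireb2*, and the highest for *Slc40a1*. Control replicate 6, the shallowest sample, had the lowest control value for 4 members, *Hmox1*, *Tfrc*, *Slc11a1* and *Steap3*, and the highest for *Slc11a2* and *Ireb2*. Control replicate 3 had the highest control value for *Ftl1*, *Fth1* and *Tfrc* and the lowest for *Slc40a1*, *Ireb2* and *Ncoa4*. Its sums of monocyte markers, 293 normalized counts, of border macrophage markers, 3031, and of photoreceptor markers, 6581, were also the highest in control. In no group of 6 samples did a single sample of any member stand apart by Dixon's test at the 95% level on log2 values, over 20 groups tested.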
